A study of Homo sapiens with 6 samples.

Results

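The 9 genes described here carry retinoic acid through a cell: the receptors RARA, RARB and RARG, the retinol-oxidizing enzymes RDH10 and DHRS9, the retinal-reducing enzyme DHRS3, the degrading enzyme CYP26B1, the retinol importer STRA6 and the retinoic acid carrier CRABP2. They were taken by symbol from the 58884 genes of the deposited matrix, and each symbol stood on 1 row. RNA sequencing compared KYSE450, an esophageal squamous cell carcinoma line with wild-type NRF2, with KEAP1null-KYSE450, in which KEAP1, the protein that sends NRF2 for degradation, was disrupted by CRISPR-Cas9 with a guide against exon 2. Each line had 3 libraries, and values with ± below are the mean and SD of a line (n = 3 each). Neither line was treated, and both grew in medium with fetal bovine serum. KEAP1null-KYSE450 is monoclonal, 1 clone set against a parental population, so any other difference between that clone and its parental line enters every comparison and cannot be told apart from loss of KEAP1.

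Vitamin A enters cells as retinol, which dehydrogenases such as RDH10 oxidize to retinal and which DHRS3 can restore from retinal. ALDH1A enzymes oxidize retinal to retinoic acid, CYP26 enzymes hydroxylate it for removal, and CRABP2 hands it to the receptors. A retinoic acid receptor pairs with a retinoid X receptor (RXR) on repeated hexamers in DNA, called retinoic acid response elements, and raises or represses the gene nearby. In stratified squamous epithelium retinoic acid is known to restrain keratinization, and loss of RARB expression is a known event in squamous carcinomas.

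Some genes of the pathway are themselves switched on by retinoic acid through such elements, and RARB and CYP26A1 are the textbook cases. The promoter below is shown because RARB was the one gene of the 9 whose expression changed past both thresholds used here. It covers the 250 bases before a RefSeq start site of RARB on the plus strand, chr3:25428013-25428262 of GRCh38.p14. Capitals mark a DR5, a direct repeat of the hexamer (A or G)G(G or T)TCA with any 5 bases between the copies. The element lies from base -53 to base -37 relative to the start site. The CYP26A1 stretch, at chr10:93073797-93073826 on the plus strand, is shown because CYP26A1 held the only other DR5 among the promoters of the 9 genes and of RXRA, CYP26A1, ALDH1A1, ALDH1A3, ADH7 and CYP2S1. There the repeat reads on the opposite strand from base -90 to base -74.
RARB: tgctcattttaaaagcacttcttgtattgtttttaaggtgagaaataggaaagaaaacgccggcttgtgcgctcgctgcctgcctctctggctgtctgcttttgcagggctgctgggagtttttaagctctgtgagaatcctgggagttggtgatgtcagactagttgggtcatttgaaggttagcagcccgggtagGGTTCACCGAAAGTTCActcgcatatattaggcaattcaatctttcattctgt
CYP26A1: taaagaTGAACTTTGGGTGAACTaattgtc

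Among all 35116 promoter windows of the RefSeq table, each from 250 bases before to 50 bases after a start site, 31 windows (0.0883%) held a DR5 on either strand. RARB has 4 such windows and the DR5 is in 1 of them. Direct repeats with spacers of 1 or 2 bases, DR1 and DR2, were in 0.131% and 0.0399% of windows and in none of those of the 8 genes matched, which are all but RDH10. The core of the antioxidant response element, the site that NRF2 binds, was searched as TGACNNNGC on both strands, letters that begin as the retinoic acid hexamer does when read on the opposite strand. It was in 13.3% of all windows. At least 1 window held it in 16.1% of all genes, and in RARB, RARG, DHRS9 and STRA6 among the 8, of which all but RARG have 4 or more windows. In RARB the core was in windows other than the one with the DR5. These matches are descriptions of sequence, and reads were counted per gene, so they do not show from which start site RARB was transcribed.

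Read numbers were recovered from the normalized counts for 4 of the 6 libraries and lay between 53027359 and 61543442, so 3 reads, the floor of detection used here, correspond to between 2.77 and 3.21 normalized counts. Reads given below for single genes over all 6 libraries use the same division in KYSE450 library 2 and KEAP1null-KYSE450 library 3, whose values also came out whole within 0.01 but could not be checked further. KEAP1 mRNA stood at 5760, 5226 and 5146 normalized counts in KYSE450 and at 5737, 4906 and 5317 in KEAP1null-KYSE450, so mRNA level does not check the knockout label. The NRF2 target NQO1 did separate the libraries, with 15681 to 17100 against 104116 to 110351 normalized counts. All 6 squamous epithelial markers, including KRT5, TP63 and CDH1, passed the filter. Past both thresholds 1 was higher (KRT5) and 2 lower (KRT6A and DSP), where 12.2% and 5.98% of all tested genes were. By adjusted p alone 1 marker was higher and 5 lower, where 24.3% and 25.5% of all tested genes were. The 5 include TP63 and CDH1, with log2 fold changes of -0.60 and -0.82. The 5 leukocyte markers summed to between 1.86 and 12.1 normalized counts in KYSE450 libraries and to between 9.17 and 12.0 in KEAP1null-KYSE450 libraries, with CD3E at or under the floor throughout, while LYZ had 3 reads against 24 and PTPRC 9 against 1. Without the filter LYZ was higher past both thresholds (log2 fold change 2.38, limma adjusted p = 0.024). The 4 endothelial markers summed to between 59.9 and 74.8 against between 48.0 and 70.6, with PECAM1 at 0 throughout and CDH5 lower past both thresholds (19.9 ± 9.11 and 1.97 ± 1.03). CDH5 passed the filter only through KYSE450, where it was higher. The 6 fibroblast markers summed to between 622 and 853 against between 349 and 436, nearly all of it COL1A1, which was itself lower (-0.85, limma adjusted p = 7.4e-04), while COL1A2 and DCN were at or under the floor. LUM had 35 reads against 0, at least 3.90-fold lower, and PDGFRB 1 against 19. The part of these levels in the results below was not tested.

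Genes with a mean of at least 10 normalized counts were tested, 16701 in all, of which 18.2% passed an adjusted p of 0.05 together with an absolute log2 fold change of 1 (2045 higher and 999 lower in KEAP1null-KYSE450, and 1388 higher and 1289 lower after quantile normalization). Of the 9 retinoic acid genes, 6 were tested and 1 of these, RARB, passed both thresholds, upward, where 12.2% of tested genes did, and none passed downward, where 5.98% did. With the adjusted p alone, 2 of the 6 passed, RARB upward and DHRS3 downward, where 49.8% of all tested genes did. CRABP2, STRA6 and DHRS9 had means of 9.76, 9.98 and 4.26 normalized counts and fell short of the filter. The values of the lines did not overlap for 5 of the 9 genes (RARB, DHRS3, DHRS9, STRA6 and CRABP2), and this was so for 38.1% of the genes above 0 in at least 1 library. Among the 6 tested genes it held for 2, against 57.8% of all tested genes. The median log2 fold change of the 6 tested genes was 0.02, against 0.004 over all tested genes. These are bulk libraries, so fewer cells with a transcript and less of it per cell cannot be told apart.

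**Figure D1:**
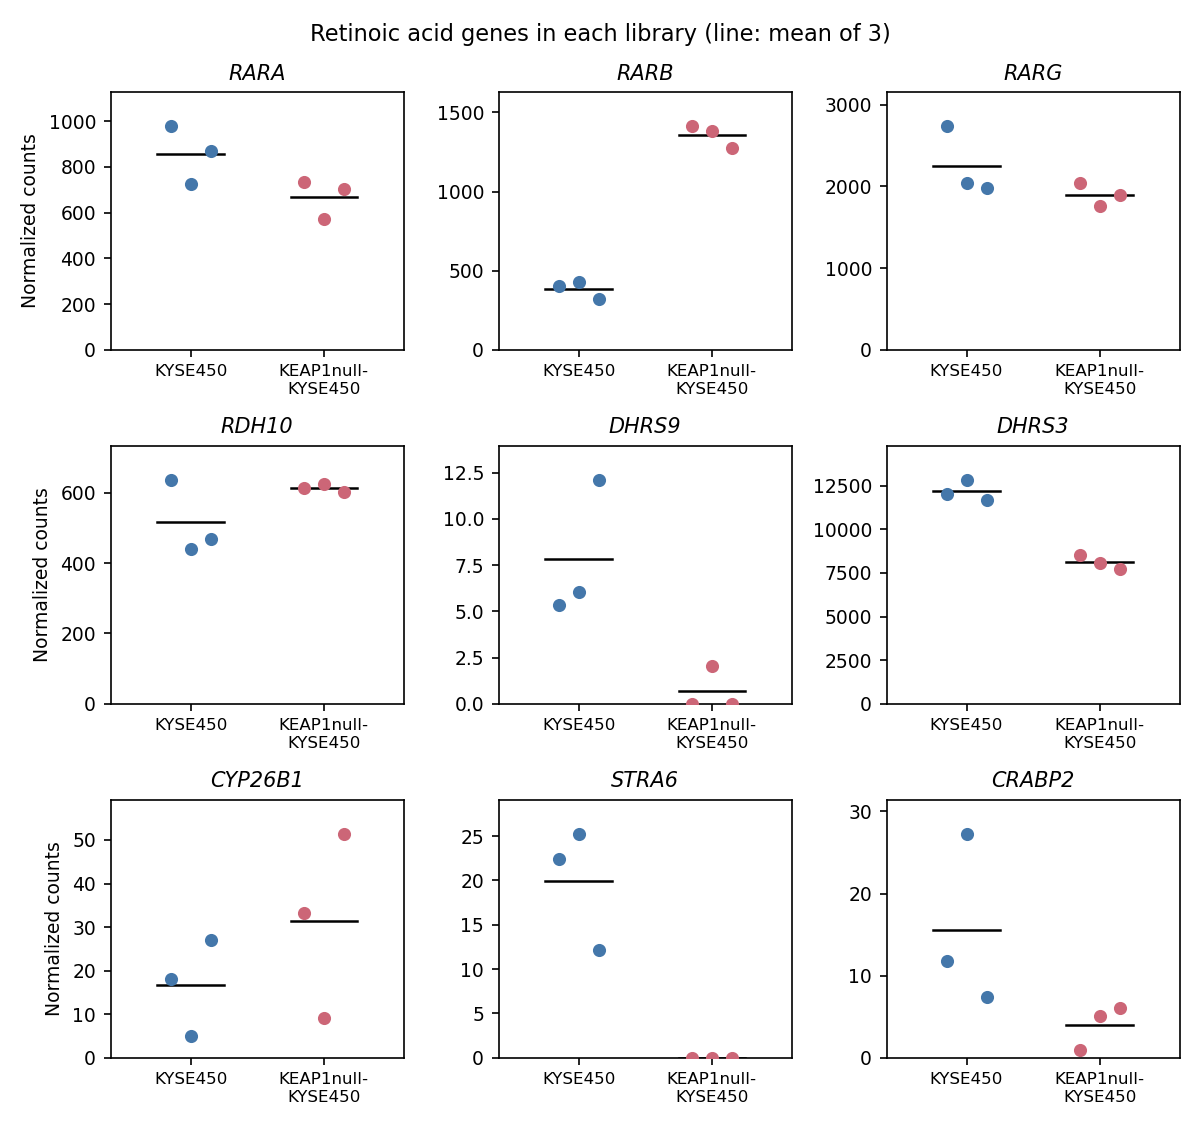
Normalized counts (vertical axis, linear from 0, scaled for each gene) of the 9 genes in the 3 KYSE450 libraries (blue) and the 3 KEAP1null-KYSE450 libraries (red), with a line at the mean of each line. RARB rose from about 384 to about 1357, DHRS3 fell from 12187 to 8111, and STRA6 was at 0 in all KEAP1null-KYSE450 libraries.

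Of the receptors, RARB rose, and RARA and RARG did not pass the test. RARB, the receptor gene that retinoic acid itself induces, spans chr3:24687887-25597932 (plus strand, hg38) and had 400, 431 and 321 normalized counts in KYSE450 and 1416, 1380 and 1274 in KEAP1null-KYSE450. Every KEAP1null-KYSE450 library stood well above every KYSE450 library. The means were 384 ± 56.7 and 1357 ± 73.9, which is 3.54-fold higher, and the log2 fold change was 1.83 (SE 0.13, limma adjusted p = 3.4e-07). It stayed past both thresholds under all 17 other settings, where it lay between 1.71 and 1.99.

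RARA, the most widely expressed receptor of the family, had 981, 725 and 868 normalized counts in KYSE450 and 733, 572 and 702 in KEAP1null-KYSE450. The ranges overlapped by a narrow margin. Its log2 fold change was -0.36 with a 95% interval from -0.67 to -0.04 before adjustment, and the adjusted p was 0.057 (limma). It fell to 0.029 without KYSE450 library 2 and to 0.048 without KEAP1null-KYSE450 library 1 or after quantile normalization. An antisense transcript, RARA-AS1, covers 11.7% of the exon bases of RARA, and no source states that strand was used in counting.

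RARG is the main receptor of squamous epithelium. Its normalized counts were 2742, 2039 and 1976 in KYSE450 and 2045, 1753 and 1889 in KEAP1null-KYSE450. One KYSE450 library stood above the rest, and the other libraries of the lines overlapped. The log2 fold change was -0.24 (95% interval -0.52 to 0.05, limma adjusted p = 0.15), so a decrease of that size or a small increase cannot be told apart here.

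Per kilobase of exon, which allows genes to be set beside each other, RARG was the most abundant of the 3 receptors in every library. It made up 68.2%, 66.7% and 64.0% of the summed level of RARA, RARB and RARG in KYSE450 libraries and 56.7%, 56.2% and 56.6% in KEAP1null-KYSE450 libraries. The share of RARB was 5.40%, 7.65% and 5.64% in KYSE450 and 21.3%, 24.0% and 20.7% in KEAP1null-KYSE450. RARB thus went from a clear last rank to values that overlapped those of RARA. The summed level of the 3 receptors was 661 ± 107 in KYSE450 and 654 ± 47.4 normalized counts per kilobase in KEAP1null-KYSE450, so the sums differed by less than their spread. The size of the RARB share depends on the length used: with the length of the canonical transcript in place of all annotated exons it was 10.7% and 33.7%, and that of RARA 22.7% and 15.8%, which would put RARB above RARA in KEAP1null-KYSE450. The canonical length was added after the values were seen. These shares are a description and were not tested.

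**Figure D2:**
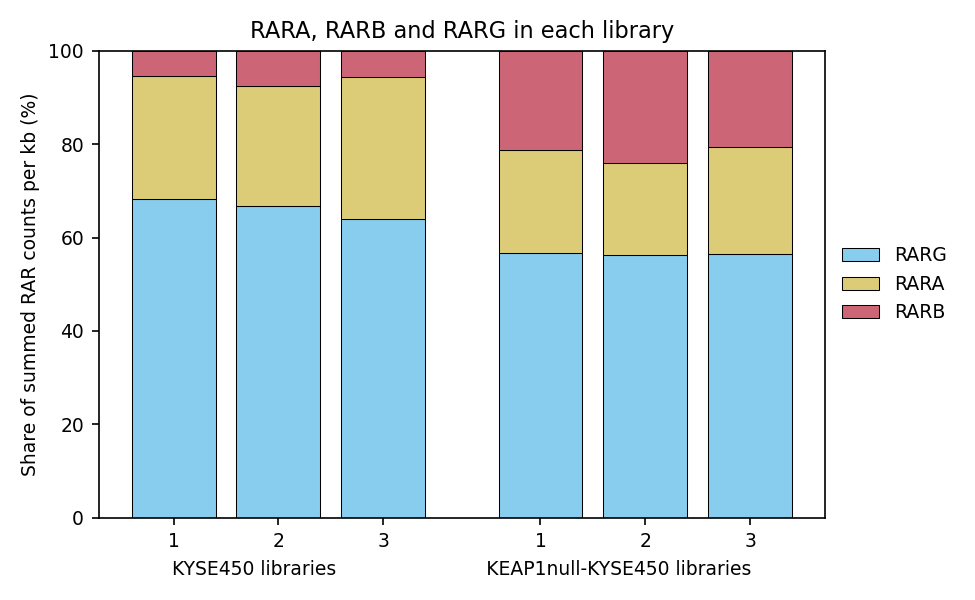
Share (vertical axis, percent) of RARG, RARA and RARB in the summed normalized counts per kilobase of exon of the 3 receptors, 1 bar for each library. RARB takes 5.40% to 7.65% of the bar in KYSE450 and 20.7% to 24.0% in KEAP1null-KYSE450, and RARG remains the largest segment in all 6 libraries.

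The partners with which these receptors bind DNA also differed. RXRA rose from 3312 ± 522 to 7658 ± 279 normalized counts, a log2 fold change of 1.22 (SE 0.11, limma adjusted p = 2.6e-06), with every KEAP1null-KYSE450 library above every KYSE450 library. It lost its call in a test against a fold change of 2 (limma adjusted p = 0.37). RXRB was lower, at 3109 ± 193 and 2277 ± 48.7 normalized counts, with a log2 fold change of -0.45 that passed the adjusted p (0.0017, limma) but not the fold threshold, and RXRG was listed at 0 in all libraries. Of the 12 partners and coregulators listed, 11 were tested. RXRA was the only one of these past both thresholds, upward, where 12.2% of all tested genes were. By adjusted p alone 4 of the 11 were higher and 3 lower, where 24.3% and 25.5% of all tested genes were. The higher ones were RXRA and the coactivators NCOA1, NCOA2 and NCOA3, with log2 fold changes of the last 3 of 0.36, 0.30 and 0.49. The lower ones were RXRB, the Mediator subunit gene MED1 (-0.53) and PPARD (-0.54), a nuclear receptor that can take retinoic acid from the carrier FABP5. The corepressor gene NCOR1 had a value of -0.18 (limma adjusted p = 0.24). The median over the list was -0.16, against 0.004 over all tested genes.

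The enzymes that interconvert retinol and retinal were next. DHRS3, which reduces retinal to retinol and is known to rise with retinoic acid, was by far the most abundant of the 9 genes. It spans chr1:12567910-12618210 (minus strand) and had 12019, 12848 and 11693 normalized counts in KYSE450 and 8554, 8064 and 7717 in KEAP1null-KYSE450. The lines did not overlap. The means of 12187 ± 596 and 8111 ± 421 gave a log2 fold change of -0.59 (SE 0.09, limma adjusted p = 1.8e-04), short of the fold threshold. The 20 genes averaging 100 or more on each side of DHRS3, from 10456522 to 16158148, had a median log2 fold change of -0.40, and 27 of these 40 were lower at an adjusted p under 0.05 and 1 was higher. Over all 12321 such genes with a known position the median was -0.08, and 31.7% were lower and 22.3% higher at that adjusted p. The part of this stretch in the level of DHRS3 was not tested.

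RDH10, which makes the first, rate-limiting step from retinol to retinal, had 637, 441 and 469 normalized counts in KYSE450 and 615, 625 and 603 in KEAP1null-KYSE450. The highest KYSE450 library lay above all KEAP1null-KYSE450 libraries. The log2 fold change was 0.27 (95% interval -0.05 to 0.60, limma adjusted p = 0.15), and KYSE450 library 1 decided whether the adjusted p passed, since without it the value was 0.43 with an adjusted p of 0.014. An antisense transcript shares 5.21% of its exon bases.

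DHRS9, a second retinol dehydrogenase, was near the floor, with 5.35, 6.06 and 12.1 normalized counts in KYSE450 and 0, 2.04 and 0 in KEAP1null-KYSE450. In reads these were 24 against 2 over the 3 libraries of each line, a ratio of 12.2 with an exact 95% interval from 3.04 to 107 that covers counting error only. In the 4 libraries with accepted reads they were 18 against 2, a ratio of 9.26 with an interval from 2.22 to 82.3. In a fit without the filter the log2 fold change was -2.53 with an adjusted p of 0.013 (limma), where 12.3% of 28799 genes passed both thresholds, 3.91% as lower genes.

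The summed level of RDH10 and DHRS9 per kilobase stood far below that of DHRS3 in all libraries. The log2 ratio was -4.82, -5.44 and -5.19 in KYSE450 libraries and -4.40, -4.28 and -4.28 in KEAP1null-KYSE450 libraries. The ratio was less negative in every KEAP1null-KYSE450 library. This description covers 3 genes and not the further enzymes below, has no test, and holds the fall of DHRS3 together with values of RDH10 that did not pass one.

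The other enzymes of these steps showed larger differences. Of 9 further genes for oxidation of retinol or retinal, 4 were tested and all 4 passed both thresholds, 3 higher and 1 lower. Of all tested genes 18.2% did. ADH7 and RDH5 averaged 2.79 and 5.41 normalized counts in KYSE450 and passed the filter only through KEAP1null-KYSE450, where they were higher. The count of higher genes therefore depends on the filter. ADH7, an alcohol dehydrogenase of upper digestive epithelium that oxidizes retinol, rose from between 0.93 and 6.42 normalized counts to between 153 and 193, a log2 fold change of 5.79 (SE 0.52, limma adjusted p = 2.4e-06). ALDH1A1, a retinal dehydrogenase, rose from 31.0 ± 7.84 to 947 ± 41.4 normalized counts, a log2 fold change of 4.92 (limma adjusted p = 1.8e-09). ALDH1A3, the retinal dehydrogenase with the higher level in the parental line, fell from 14543 ± 2444 to 4037 ± 471, 3.60-fold lower with a log2 fold change of -1.84 (limma adjusted p = 2.3e-07). Per kilobase of exon, ALDH1A3 stood at 2726 and ALDH1A1 at 10.9 normalized counts in KYSE450, and at 757 and 334 in KEAP1null-KYSE450. RDH5, a retinol dehydrogenase best known from the retina, had at most 12.1 normalized counts in KYSE450 and at most 25.5 in KEAP1null-KYSE450, and its log2 fold change of 2.11 (limma adjusted p = 0.027) lost its call under 8 of 16 other settings. For the other 3 genes the highest adjusted p of any other setting was 8.8e-04 (limma, edgeR or DESeq2). ALDH1A2 was at or under the floor in all libraries.

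Among 7 further genes of retinal reduction, 6 were tested and 2 passed both thresholds, upward, where 12.2% of all tested genes did. AKR1B10, an aldo-keto reductase with high activity on retinal, rose from 55.7 ± 22.7 to 30985 ± 1818 normalized counts, a log2 fold change of 9.17. AKR1C3, a relative with weaker activity on retinal, rose from 202 ± 8.55 to 151512 ± 22137, a log2 fold change of 9.54, and reads could be split between it and its near-identical AKR1C neighbours. Both are also known NRF2 targets. DHRS4 had a log2 fold change of 0.47 (limma adjusted p = 0.0017). RDH11, RDH13 and RDH14 had log2 fold changes of 0.13, -0.28 and -0.30, none with an adjusted p under 0.05. Per kilobase, DHRS3 stood at 3467 in KYSE450 against 31.4 for AKR1B10, and at 2308 against 17476 in KEAP1null-KYSE450, so AKR1B10 went from far below DHRS3 to above it. The median of the 6 was 0.30.

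**Figure D3:**
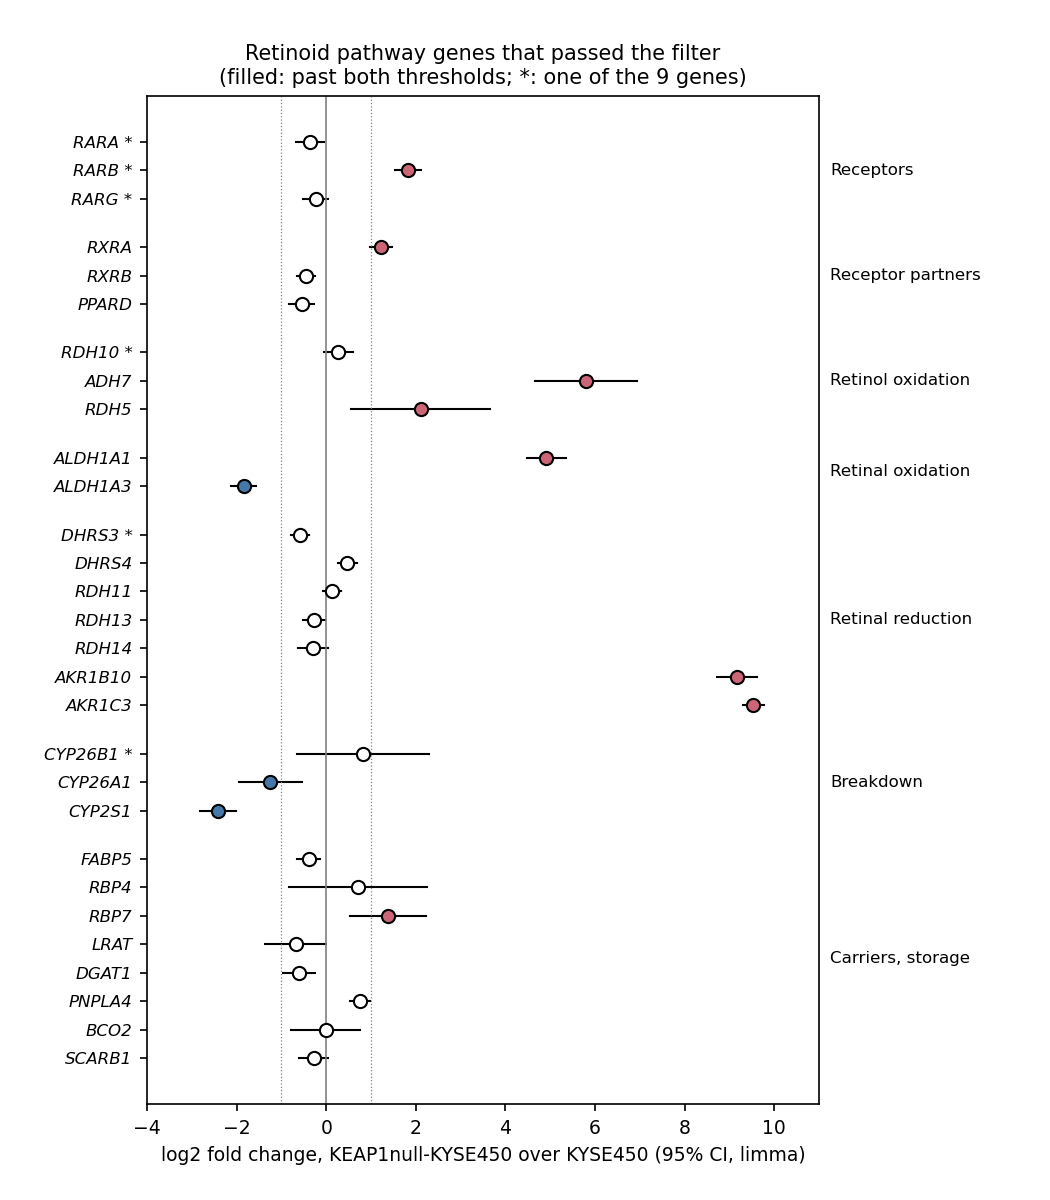
Log2 fold change of KEAP1null-KYSE450 over KYSE450 (horizontal axis, with 95% intervals from limma before adjustment) for retinoid pathway genes that passed the filter, ordered by role. Filled points passed both thresholds, asterisks mark genes of the 9, and dotted lines stand at -1 and 1. RARB (1.83) is the filled point among the 9, and AKR1B10 and AKR1C3 lie farthest to the right.

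Breakdown of retinoic acid is the work of the CYP26 family. CYP26B1 was low and uneven, with 18.2, 5.05 and 27.0 normalized counts in KYSE450 and 33.2, 9.17 and 51.5 in KEAP1null-KYSE450. One library of each line was far below its companions, and the lines overlapped. The log2 fold change of 0.83 (95% interval -0.64 to 2.30, limma adjusted p = 0.33) turned to -0.06 with edgeR and -0.09 with DESeq2 on the 4 libraries with recovered reads. A direction is therefore not given for CYP26B1.

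Of the 3 other genes of breakdown, 2 were tested and both were lower past the thresholds, where 5.98% of all tested genes were. CYP26A1, the family member most directly induced by retinoic acid, had 51.3, 64.7 and 52.2 normalized counts in KYSE450 and 27.7, 22.4 and 19.2 in KEAP1null-KYSE450. The lines did not overlap, and the log2 fold change was -1.25 (SE 0.32, limma adjusted p = 0.0065). On recovered reads of 4 libraries the adjusted p was 0.13 with edgeR and 0.19 with DESeq2, with values of -1.01 and -1.04. CYP2S1, a cytochrome P450 of epithelia that can act on retinoic acid, fell from 4911 ± 1037 to 928 ± 276 normalized counts, a log2 fold change of -2.42 (limma adjusted p = 5.5e-07). CYP26C1 was listed at 0 throughout. RARB and CYP26A1, the 2 genes whose promoters held a DR5, thus differed in direction in the limma fit.

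Uptake and carriage were at low levels for both genes of the 9. STRA6, the membrane receptor that takes up retinol from its blood carrier, spans chr15:74179466-74212267 (minus strand). It had 22.5, 25.3 and 12.1 normalized counts in KYSE450 and 0 in each KEAP1null-KYSE450 library. All 59 of its reads came from KYSE450, 34 of them from the libraries with accepted reads, and against the floor of 3 reads per library it was at least 6.76-fold lower. Without the filter its adjusted p was 1.4e-04 (limma). The gene CCDC33 on the opposite strand shares 6.77% of the exon bases of STRA6.

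CRABP2, the carrier that delivers retinoic acid to the receptors, spans chr1:156699606-156705816 (minus strand). It had 11.8, 27.3 and 7.46 normalized counts in KYSE450 and 0.92, 5.10 and 6.05 in KEAP1null-KYSE450. The lowest KYSE450 library and the highest KEAP1null-KYSE450 library were close. In reads, 46 stood against 12, a ratio of 3.91 with an exact 95% interval from 2.04 to 8.11 for counting error only, and in the 4 libraries with accepted reads 19 stood against 6 (ratio 3.26, interval 1.25 to 9.96). Without the filter the log2 fold change was -1.74 (SE 0.73) with an adjusted p of 0.094 (limma), so the difference did not pass the test. CRABP2 lies in a stretch in which most genes averaging 100 or more, far above CRABP2 itself, were lower. Its 40 neighbours averaging that much, from 156054782 to 161038977, had a median log2 fold change of -0.72. Of these, 30 were lower and 3 higher at an adjusted p under 0.05, against the 31.7% and 22.3% given above. The part of this stretch in the level of CRABP2 was not tested.

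**Figure D4:**
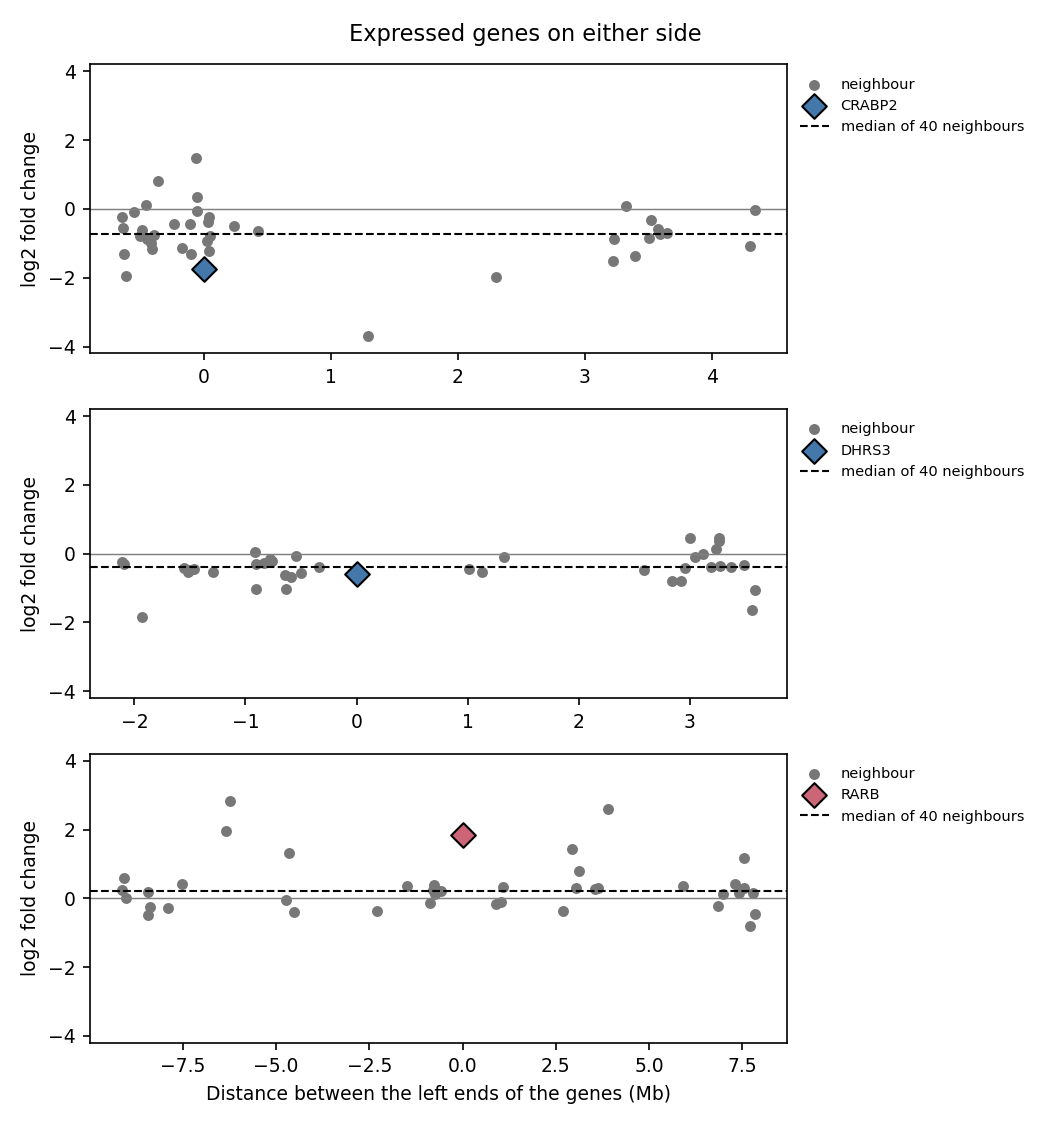
Log2 fold change (vertical axis) of the 20 genes averaging 100 or more on each side of CRABP2, DHRS3 and RARB (grey), against the distance between left ends of the genes in megabases, with the gene itself as a diamond and the median of its 40 neighbours as a dashed line. The medians are -0.72 for CRABP2, -0.40 for DHRS3 and 0.22 for RARB, and the diamond of CRABP2 comes from the fit without the filter.

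Around the other genes of the 9, the neighbours had medians of 0.22 for RARB, 0.14 for RARG, 0.05 for RDH10, -0.01 for STRA6, -0.02 for DHRS9, -0.05 for CYP26B1 and -0.12 for RARA. With 10 neighbours on each side these medians were 0.25 for RARB, 0.23 for RARG, 0.16 for RDH10, -0.14 for STRA6, -0.04 for DHRS9, -0.21 for CYP26B1 and -0.08 for RARA, so those near 0 depend on the width taken. The 40 neighbours of RARB ran from 15560699 to 32570858. Of these, 14 were higher and 6 lower at an adjusted p under 0.05, where 22.3% and 31.7% of all such genes were. RARB lay 1.61 above the median of its 40 neighbours on the log2 scale, while DHRS3 lay 0.19 below that of its own. The part of this stretch in the level of RARB was not tested.

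The other 15 genes of uptake, carriage and storage held 8 tested genes, with a median log2 fold change of -0.15. Of these 8, 1 passed both thresholds, upward, where 12.2% of all tested genes did. This was RBP7, a cellular retinol binding protein, which rose from 21.2 ± 5.22 to 59.8 ± 28.7 normalized counts with a log2 fold change of 1.38. Without KEAP1null-KYSE450 library 2 it no longer passed (1.02, limma adjusted p = 0.077). PNPLA4, which can hydrolyse retinyl esters, had a log2 fold change of 0.75 (limma adjusted p = 9.8e-05). FABP5, the carrier that competes with CRABP2 for retinoic acid, was abundant, with 8898 ± 1280 and 6775 ± 683 normalized counts and a log2 fold change of -0.39 (limma adjusted p = 0.017). DGAT1, an acyltransferase that can esterify retinol, had a value of -0.61 (limma adjusted p = 0.0084), and LRAT, the main retinol esterifying enzyme, -0.69 (limma adjusted p = 0.088). CRABP1 and the intestinal RBP2 were listed at 0 in all libraries.

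**Figure D5:**
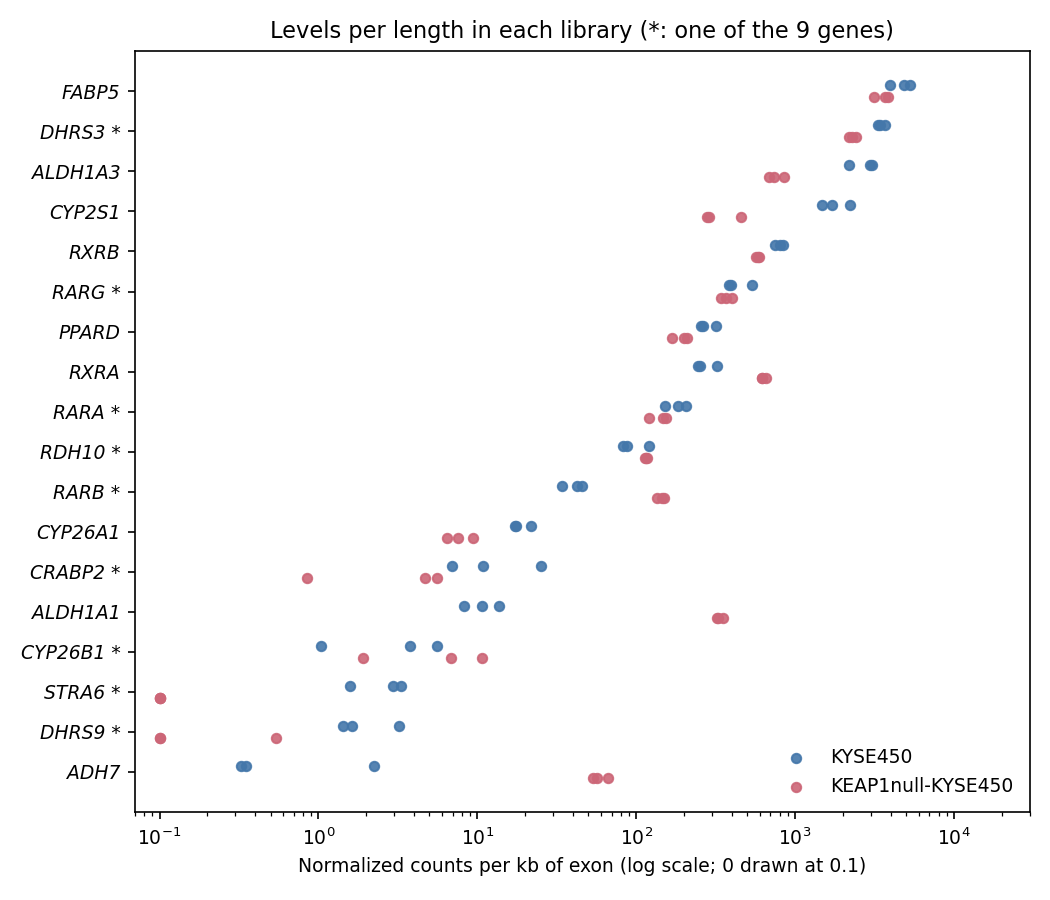
Normalized counts per kilobase of exon (horizontal axis, log scale, with 0 drawn at 0.1) in the 3 KYSE450 libraries (blue) and the 3 KEAP1null-KYSE450 libraries (red) for the 9 genes (asterisks) and 9 others of the pathway, ordered by the mean in KYSE450. DHRS3 is the highest of the 9 in both lines, and STRA6 and DHRS9 are the lowest.

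Ordered by mean level per kilobase in KYSE450, the 9 genes were DHRS3 (3467), RARG (439), RARA (181), RDH10 (96.7), RARB (40.6), CRABP2 (14.3), CYP26B1 (3.46), STRA6 (2.6) and DHRS9 (2.09), and the last 3 overlapped each other. In KEAP1null-KYSE450 the order was DHRS3 (2308), RARG (370), RARB (144), RARA (141), RDH10 (115), CYP26B1 (6.46), CRABP2 (3.72), DHRS9 (0.18) and STRA6 (0). RARB and RARA overlapped there, as did CYP26B1 and CRABP2, and DHRS9 and STRA6.

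Genes that retinoic acid is known to raise were read as a list of 13, of which 9 were tested. RARB (1.83) and DHRS3 (-0.59), which belong to the same kind, were counted among the 9 genes above and not here. Past both thresholds 2 of these were higher and 2 lower, where 12.2% and 5.98% of all tested genes were. The median log2 fold change of the list was -0.31. The higher ones were HOXA5, a homeobox gene (from 166 ± 10.5 to 375 ± 60.1 normalized counts, log2 fold change 1.16), and PLAAT4, a phospholipase (1.06, with a call lost under 8 of 16 other settings). The lower ones were CYP26A1 and KRT13, a keratin of mucosal squamous epithelium (from 128788 ± 23121 to 48424 ± 2372, -1.40). By adjusted p alone ASB2 (-0.73) and NRIP1 (-0.31) were also lower, and RARRES1 was listed at 0 throughout. Of 8 squamous genes that retinoids are known to lower, 4 were tested and 1 was lower past both thresholds. Of all tested genes 5.98% were. SPRR1B, a cornified envelope precursor on chromosome 1, was at 0 in all KEAP1null-KYSE450 libraries and at least 50.4-fold lower. SPRR1B passed the filter only through KYSE450, where it was higher, so this count depends on the filter. FLG, TGM1 and KRT10 had log2 fold changes of -0.42, -0.29 and 0.03 with adjusted p of 0.48, 0.73 and 0.90 (limma).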

How the data were processed

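Total RNA of 3 KYSE450 and 3 KEAP1null-KYSE450 libraries was sequenced. By the methods and the submitters' processing notes, the authors aligned reads to hg38 with STAR (2.6.90c), counted them per gene with featureCounts (1.5.1) and deposited normalized counts, which are a signal equal to reads over 1 factor per library. The methods name a RefSeq annotation, whereas the rows carry Ensembl identifiers. All values of each library were whole multiples of its smallest value (tolerance 0.01), and reads were accepted as recovered in 4 libraries, since in the others 1 read was worth too nearly 1 normalized count for that test. Columns carry no replicate number, so libraries are numbered by column order. Nothing states that libraries came from separate cultures, so p-values measure the spread between libraries, which may be technical.

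From these values, log2(normalized count + 1) was tested with limma (3.58.1, R 4.3.3; eBayes with trend) on genes averaging at least 10, two-sided, with Benjamini-Hochberg adjustment over all tested genes. Fold changes on this scale understate those of low genes. A call required an adjusted p under 0.05 together with a log2 fold change of 1 or more in size. edgeR (4.0.16) and DESeq2 (1.42.0) were run on the recovered reads. The tests were checked on simulated data. Exon lengths, positions and overlaps came from gencode v44 of hg38, and promoters from RefSeq (GRCh38.p14). The genes and lists were chosen with earlier results of these data known. Named were all 9 genes, list members past both thresholds, and genes acting on the same step; ASB2, NRIP1, DGAT1, PNPLA4, FLG, TGM1 and KRT10 were named after their values were seen.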

Additional observations from a re-analysis of the deposited data

How the results depend on the processing

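RARB kept its direction and its call under all 17 alternatives, and DHRS3 its direction. The number of the 9 genes called lower was 0, and became 2 without the filter (DHRS9 and STRA6) and 1 with no fold cutoff. It was 1 when any KEAP1null-KYSE450 library was left out and stayed at 0 when a KYSE450 library was. In the former case STRA6, which was at 0 in all KEAP1null-KYSE450 libraries, passed the filter only through KYSE450, where it was higher. Higher calls for retinol and retinal oxidation went from 3 to 1 with a mean of at least 100. Uptake, carriers and storage had 1 higher call, which became 0 with a mean of at least 100, quantile normalization or a test against a fold change of 2, 2 with no fold cutoff, and 0 to 1 leaving out 1 library; its 0 lower calls became 1 after quantile normalization, 2 with no fold cutoff, and 0 to 1 leaving out 1 library. The 2 lower calls of breakdown became 1 with a pseudocount of 10, a mean of at least 100, a test against a fold change of 2, edgeR and DESeq2. Partners and coregulators had 0 higher calls in a test against a fold change of 2, and 4 higher and 3 lower with no fold cutoff. Of the genes known to rise, higher calls became 1 with a pseudocount of 10, a mean of at least 100, edgeR and DESeq2, 0 with quantile normalization and a test against a fold change of 2, and 1 to 2 leaving out 1 library. Their lower calls became 1 with a pseudocount of 10, a mean of at least 100, edgeR and DESeq2, 4 after quantile normalization or with no fold cutoff, and 0 in a test against a fold change of 2. The lower call among squamous genes became 0 with a mean of at least 100.

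The RARB share was 6.23% and 22.0% in the 2 lines, 11.1% and 34.7% without division by length, and 10.7% and 33.7% with canonical length. The log2 ratio of RDH10 and DHRS9 to DHRS3 was -5.15 and -4.32, then -4.56 and -3.72 without division by length. With canonical length, which was added with the data in view, it was -5.37 in KYSE450 and -4.56 in KEAP1null-KYSE450. Signs turned only for genes without a call. These were CYP26B1 (-0.060 with edgeR, -0.086 with DESeq2), RBP4 (-0.059 after quantile normalization, -0.14 to 1.24 leaving out 1 library), NCOR1 (0.014 after quantile normalization), CREBBP (-0.25 to 0.022 leaving out 1 library), TGM1 (-0.88 to 0.24), BCO2 (0.0026 with a pseudocount of 10, 0.017 rescaled, 0.39 with edgeR, 0.37 with DESeq2, -0.29 to 0.38 leaving out 1 library), KRT10 (-0.044 with edgeR, -0.072 with DESeq2, -0.12 to 0.20 leaving out 1 library) and KEAP1 (0.016 rescaled, 0.14 after quantile normalization, -0.072 to 0.040 leaving out 1 library). The causes were not tested. No paired analysis was possible because the columns carry no replicate number. Read counts of single genes in the 4 libraries with accepted reads were also added with the data in view. Depth limits CRABP2, STRA6, DHRS9 and CYP26B1, each with under 100 reads in either line.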

Other observations

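Other retinoid genes also lay among neighbours that were lower in KEAP1null-KYSE450. The 40 neighbours with a mean of at least 100 of RXRB on chromosome 6 had a median log2 fold change of -0.66, with 27 lower and 2 higher at an adjusted p under 0.05 (limma), where 31.7% and 22.3% of all genes of that level were, and RXRB itself had -0.45. Around CYP26A1 on chromosome 10 the median was -0.41, with 22 lower and 3 higher, and CYP26A1 itself had -1.25. RXRA, which rose by 1.22, had neighbours with a median of -0.13. The part of these stretches in the level of RXRB and CYP26A1 was not tested.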
